A study of Mus musculus with 6 samples.

Results

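The transcripts described here are 37 genes that type I interferon is known to induce, measured in mouse bone marrow-derived macrophages (BMDMs) polarized to the M2 state. They were chosen by gene symbol from a list, 37 of the 41549 genes in the table. All 37 passed the low-count filter, which kept 11933 genes. The cells came from the bone marrow of adult wild type C57Bl/6 N mice, were grown with macrophage colony-stimulating factor, transfected as M0 macrophages with a locked nucleic acid antisense oligonucleotide (ASO) and then polarized with IL-4 and IL-13. In the αGlu group the ASO targeted 5′tRF-Glu(CTC), which is cut from the 5′ side of the glutamate tRNA with the CTC anticodon, and in the Ctr group it was a control antisense. Each group had 3 libraries, numbered in the labels, and both groups share the strain, the growth factor, the transfection and the polarization. No untransfected cells were analysed here, and mRNA libraries do not count the fragment, so its blockade was not checked. In the study's reporting, replicates of primary cells are preparations from different animals.

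The αGlu oligonucleotide and the stretch of the fragment that it was designed against are shown because that oligonucleotide is the treatment. Capitals in the target mark the 20 bases from position 2 to 21, counted from its 5′ end, to which the oligonucleotide is the exact reverse complement.
αGlu antisense: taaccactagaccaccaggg
target in 5′tRF-Glu(CTC): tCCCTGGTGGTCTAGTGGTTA

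Type I interferons, the IFN-α proteins and IFN-β, are secreted by cells that sense foreign or misplaced nucleic acid. They bind a receptor made of IFNAR1 and IFNAR2, whose kinases activate ISGF3, a complex that holds IRF9. ISGF3 binds interferon-stimulated response elements (ISREs) in the promoters of antiviral genes, and macrophages are known to keep such genes on at a basal level through small amounts of their own IFN-β.

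Total counts lay between 17912831 and 30386653 reads per library, and Ctr 1, with 22215016, was not among the extremes. Across all genes αGlu 1 stood closer to the Ctr libraries than to αGlu 2 and 3. The chi-square statistic per gene was 252.8 between αGlu 1 and αGlu 2 but 31.5 between αGlu 1 and Ctr 2, and the lowest value for any pair was 19.8, so no library repeated another. Macrophage markers were present in all 6 libraries, with a summed level of 14537 to 23585 CPM, which are counts scaled to a common TMM-adjusted library size. The 6 markers of plasmacytoid dendritic cells, which are strong interferon producers, summed to 1.07 to 2.96 CPM, with Klk1 and Ly6d at 0.

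The members were abundant transcripts in these cells. Levels between genes are compared in TPM, the deposited transcript levels scaled by gene length. The highest mean TPM over the 6 libraries in each role group was 1933 for Ifitm3, a membrane protein that blocks virus entry, 1890 for the secreted glycoprotein Lgals3bp, 640 for the DNA sensor gene Ifi204, 592 for Ifit3, 436 for the ubiquitin-like modifier Isg15, 393 for the RNA-sensing enzyme gene Oas1a and 206 for the ADP-ribosyltransferase gene Parp14. Isg20, an exonuclease gene, and Mx2 were among the lowest, at 21.2 and 15.1 TPM. The members lie on 14 chromosomes, and several are neighbours. In GENCODE M21 (GRCm38), Ifit2, Ifit3, Ifit3b and Ifit1 span 99.3 kb at chr19:34550694-34650009, Rsad2 and Cmpk2 span 37.1 kb at chr12:26442746-26479837, and Parp14, Dtx3l and Parp9 span 140 kb at chr16:35832874-35972605.

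Promoter windows of RefSeq (GRCm38.p6), running from 250 bases before to 50 bases after each gene start, were matched by symbol for 26 of the 37 members. The core letters of an ISRE, GAAA and a second GAAA with 2 bases of any kind between them, on either strand, occurred in 13 of these 26, or 50%, against 385 of 9395 tested genes with a window, or 4.1%. The interferon-inducible GTPases of the GBP and IRG families, compared below, held it in 10 of 11 genes with a window, or 90.9%, so the letters are not particular to the members. These matches are descriptions of letters, without a test. The 160 bases before the start are given for 4 members to which the results below return. Ifit3 is the most abundant IFIT transcript, and Ifit2 is its neighbour and holds no match in the windows read. Isg15 followed the other members most closely, and Ddx60 was among the members with the smallest p-values. Capitals mark the ISRE core on either strand, read as its reverse complement where it lies on the other strand, and matches in Isg15 overlap.
Ifit3, chr19:34583369-34583528, plus strand: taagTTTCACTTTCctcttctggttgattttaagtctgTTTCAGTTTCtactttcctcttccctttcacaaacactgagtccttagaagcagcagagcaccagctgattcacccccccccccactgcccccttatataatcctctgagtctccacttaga
Ifit2, chr19:34550534-34550693, plus strand: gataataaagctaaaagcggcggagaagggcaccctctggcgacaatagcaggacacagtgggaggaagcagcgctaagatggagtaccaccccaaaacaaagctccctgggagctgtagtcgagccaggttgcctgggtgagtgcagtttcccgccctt
Isg15, chr4:156200819-156200978, minus strand: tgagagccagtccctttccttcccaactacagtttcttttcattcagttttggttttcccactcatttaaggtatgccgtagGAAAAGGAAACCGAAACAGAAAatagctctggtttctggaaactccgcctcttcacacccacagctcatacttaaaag
Ddx60, chr8:61927927-61928086, plus strand: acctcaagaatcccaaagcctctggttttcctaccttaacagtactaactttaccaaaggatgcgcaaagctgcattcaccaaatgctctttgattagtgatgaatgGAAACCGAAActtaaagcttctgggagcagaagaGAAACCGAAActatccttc

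The members differed widely inside the control group. In Ctr 1 every one of the 37 members had its lowest level of the 6 libraries, whereas 21.5% of all genes tested were lowest there. The members took 0.316% of the reads in Ctr 1 and 0.994% to 1.20% in the other 5 libraries. The mean log2 CPM over the members was 5.29 in Ctr 1, compared with 7.41 and 7.49 in Ctr 2 and 3 and with 7.70, 7.55 and 7.35 in αGlu 1, 2 and 3. For 35 of the 37 members the mean of Ctr 2 and 3 was more than 2-fold above Ctr 1, as it was for 2.7% of all genes. The log2 difference ranged from 0.84 to 5.70 with a median of 1.98, while the median over all genes was -0.0016. Ctr 2 and 3 were alike, with log2 differences between them of -0.16 to 0.27. Since these are bulk libraries, fewer responding cells and less RNA per cell cannot be told apart. A difference of 1 library from 2 others has no replicate of its own and was not tested.

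**Figure D1:**
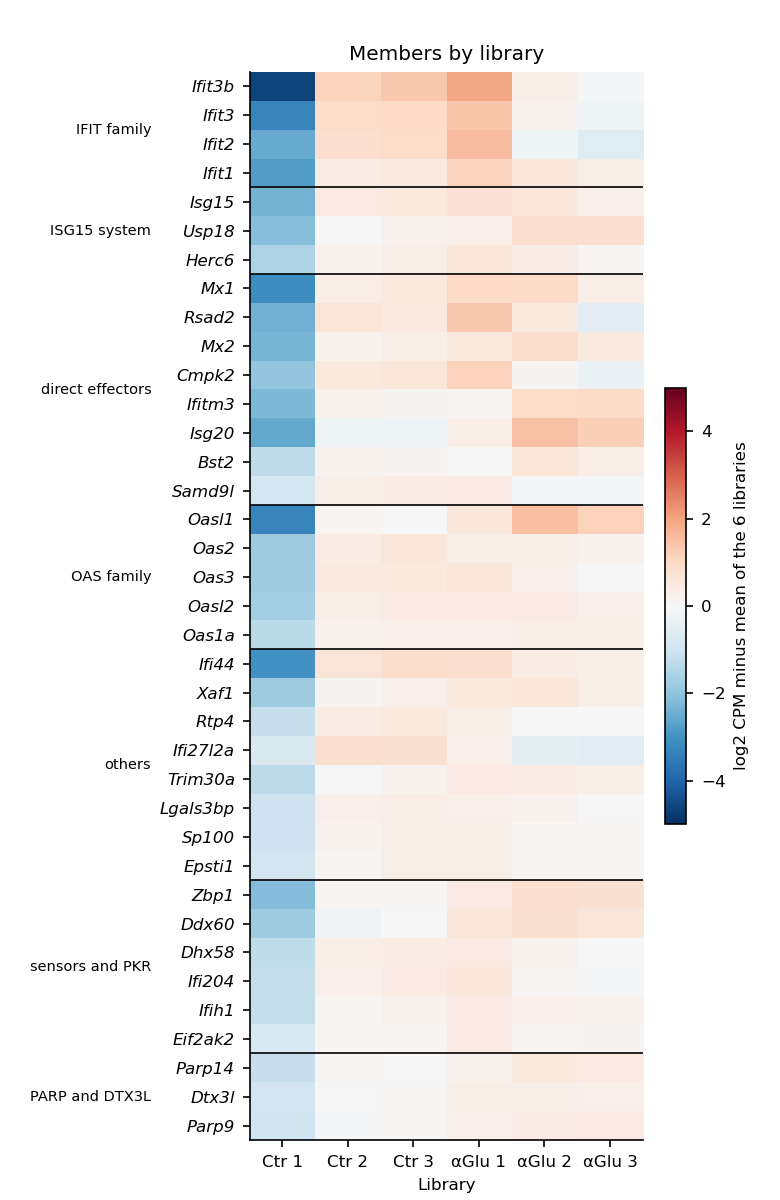
Level of each of the 37 members (rows, grouped by role) in each library (columns), as log2 CPM minus the mean of the 6 libraries, with blue for low and red for high. The Ctr 1 column is the lowest for all 37 members, and within αGlu the IFIT rows are highest in αGlu 1.

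The IFIT family showed the deepest drop. Ifit3b had 0.681 CPM in Ctr 1 (15 reads), 36.8 and 42.7 in Ctr 2 and 3, and 64.2, 21.6 and 16.1 in αGlu 1, 2 and 3. Ifit3 had 23.99, 437 and 467 CPM in the Ctr libraries and 610, 274 and 199 in the αGlu libraries. Ifit2 had 66.2, 680 and 714 CPM in Ctr and 1089, 324 and 247 in αGlu. In each of these genes Ctr 1 was lowest, αGlu 1 was highest, and αGlu 2 and 3 lay between them, below Ctr 2 and 3. The mean of Ctr 2 and 3 exceeded Ctr 1 58.3-fold for Ifit3b, 18.8-fold for Ifit3, 10.5-fold for Ifit2 and 9.32-fold for Ifit1. Ifit3 and Ifit3b are close copies, and reads that fit both may have been split between them.

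Direct antiviral effectors followed. Mx1, a gene of the dynamin-like GTPase family, had 7.63, 82.5 and 92.8 CPM in Ctr and 132, 130 and 83.3 in αGlu. Ifitm3 had 72.3, 386 and 377 CPM in Ctr and 353, 654 and 661 in αGlu. Ifi44, a member of less defined function, had 13.04, 164 and 198 CPM in Ctr and 187, 139 and 132 in αGlu. Outside Ctr 1 the groups overlapped for Mx1 and Ifitm3, whereas Ifi44 had αGlu 1 between Ctr 2 and 3 and the other αGlu libraries below both.

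Isg15 is conjugated to proteins during the antiviral response and Usp18 removes it and restrains the receptor. Isg15 had 15.99, 109 and 114 CPM in Ctr and 135, 120 and 97.6 in αGlu. Usp18 had 18.6, 83.1 and 94.5 CPM in Ctr and 99.05, 148 and 142 in αGlu. For Usp18 all αGlu libraries lay above all Ctr libraries, and for Isg15 αGlu 3 fell below Ctr 2 and 3.

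Among the enzymes and sensors of foreign nucleic acid, Oas1a had 88.5, 257 and 264 CPM in Ctr and 267, 282 and 270 in αGlu. Oasl1, which restrains translation of Irf7 mRNA, had 3.54, 37.4 and 35.8 CPM in Ctr and 49.9, 100.1 and 77.3 in αGlu. Both were higher in each αGlu library than in each Ctr library, Oas1a by a narrow margin. Ifi204 had 298, 812 and 922 CPM in Ctr and 1022, 713 and 647 in αGlu, so that its groups overlapped. Oas1a and Ifi204 belong to families of close copies, as does Trim30a below, and their counts are uncertain to that extent. The smallest drops of Ctr 1 were those of Eif2ak2, the RNA-activated kinase PKR (log2 difference 0.84), and of Parp9 (0.98) and Dtx3l (1.005), partners in ADP-ribosylation and ubiquitin transfer.

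Lgals3bp, which made up a large part of the members' reads, had 799, 1952 and 2061 CPM in Ctr and 1955, 1947 and 1686 in αGlu. Its αGlu libraries lay within or below the range of Ctr 2 and 3. Over the 6 libraries the correlation of a member with the mean of the other members ran from a Pearson r of 0.51 for Ifi27l2a to 0.9998 for Isg15. Without Ctr 1 it ran from -0.51 for Ifitm3 to 0.996 for Herc6, so a course shared by all members rested on that library. Some members still went together without Ctr 1, such as Isg15 (r 0.987) and Ifit1 (0.95). Others did not, such as Usp18 (-0.21) and Oasl1 (-0.15). These 6 points share their libraries with the members and are given as a description.

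The comparison of αGlu with Ctr asked which of these genes differ when the fragment is blocked. With all 6 libraries, edgeR's quasi-likelihood test with Benjamini-Hochberg adjustment called 0 of the 37 members at an adjusted p under 0.1 and a fold change above 2, and 0% of the 11933 genes. Log2 fold changes were positive for 36 members, with a median of 0.49 against 0.016 over all genes. At an unadjusted p under 0.05 there were 2 members, or 5.41%, against 24.7% of all genes. DESeq2 called 2 members, Isg20 and Ddx60, where it called 8.13% of all genes.

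Isg20 had 1.54, 7.94 and 7.80 CPM in Ctr (mean 5.76 ± 3.65, SD, n = 3) and 11.5, 25.3 and 20.6 in αGlu (19.1 ± 7.003). Every αGlu library was above every Ctr library, with αGlu 1 nearest to Ctr. Its log2 fold change was 1.73 ± 0.62 (SE), with an adjusted p of 0.178 by edgeR and 0.047 by DESeq2. Ddx60, a helicase gene linked to sensing of viral RNA, had 19.04, 58.3 and 66.1 CPM in Ctr (47.8 ± 25.2, SD, n = 3) and 98.2, 112.0 and 98.2 in αGlu (103 ± 7.99). The αGlu libraries were closely grouped above the highest Ctr library. Its log2 fold change was 1.10 ± 0.44 (SE), with an adjusted p of 0.196 by edgeR and 0.088 by DESeq2.

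The groups did not overlap for 13 members, all higher in αGlu, or 35.1% of the members. Over all genes 14.2% were higher without overlap and 15.9% were lower without overlap. Beside Isg20, Ddx60, Usp18, Oasl1 and Oas1a these were Parp9, Parp14, Dtx3l, Mx2, Zbp1, Xaf1, Ifih1 and Trim30a. All 3 members of the PARP and DTX3L group were included and none of the IFIT family. Parp14 had 262, 602 and 572 CPM in Ctr and 666, 806 and 768 in αGlu, with a log2 fold change of 0.64 ± 0.32 and an adjusted p of 0.261 by edgeR. Parp9 had 78.2, 147 and 163 CPM in Ctr and 185, 201 and 206 in αGlu. Dtx3l had 91.1, 180 and 185 CPM in Ctr and 220, 214 and 210 in αGlu. In these 3 genes Ctr 2 and 3 lay just below the lowest αGlu library.

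Zbp1, a sensor of left-handed nucleic acid that can start necroptosis, had 29.8, 139 and 141 CPM in Ctr and 176, 241 and 229 in αGlu. Ifih1, the RNA sensor MDA5, had 59.5, 146 and 157 CPM in Ctr and 185, 166 and 160 in αGlu. The gap between the groups was wide for Zbp1 and narrow for Ifih1. Mx2 had 2.95, 16.6 and 17.7 CPM in Ctr and 20.8, 26.98 and 20.1 in αGlu. Xaf1 had 25.2, 96.6 and 103 CPM in Ctr and 120, 131 and 108 in αGlu. Trim30a had 106, 263 and 294 CPM in Ctr and 340, 337 and 319 in αGlu. For these 3 the lowest αGlu library lay close above Ctr 3.

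The direction of the comparison depended on Ctr 1. Without this library, edgeR still called 0 members and 0% of all genes, the median log2 fold change of the members fell from 0.49 to 0.094, and 22 of 37 were positive instead of 36. The difference in mean log2 CPM over the members, αGlu minus Ctr, was 0.80 with all libraries and 0.089 without Ctr 1. The 13 members without overlap stayed so without Ctr 1, since it was never the highest Ctr library. As Ctr 1 was lowest for all 37 members, they had only to exceed Ctr 2 and 3. The 14.2% over all genes was counted against all 3 Ctr libraries, and the share without Ctr 1 is not given here. How far the contrast between the shares depends on Ctr 1 was therefore not tested, and the 13 are not set against a share there. Of the members, 8 (21.6%) had an unadjusted p under 0.05 without Ctr 1, against 14% of all genes. Ddx60 had a log2 fold change of 0.73 ± 0.11 there, Oasl1 1.06 ± 0.31, Zbp1 0.63 ± 0.17 and Ifi27l2a -0.99 ± 0.28. The smallest adjusted p was 0.351 by edgeR.

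**Figure D2:**
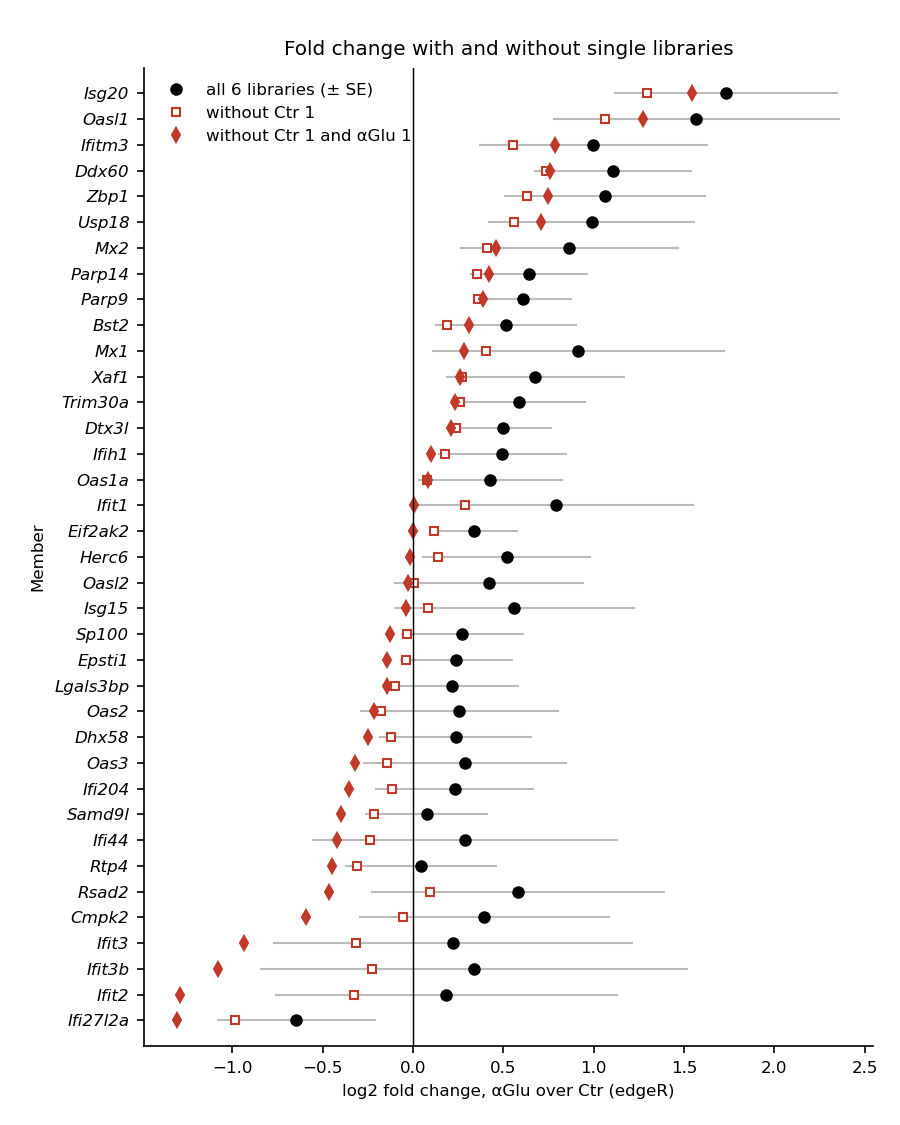
Log2 fold change of αGlu over Ctr for each of the 37 members, ordered by the value without Ctr 1 and αGlu 1, with all 6 libraries (black, grey bars ± SE), without Ctr 1 (open squares) and without both libraries (red diamonds). With all libraries 36 members lie above 0, and without both libraries 17 do.

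Within the αGlu group the members split. αGlu 1 held the highest level of the 6 libraries for 18 members, αGlu 2 for 11, Ctr 3 for 5, αGlu 3 for 2 and Ctr 2 for 1. The mean of αGlu 2 and 3 minus αGlu 1 ran from -1.95 for Ifit2 to 0.98 for Isg20 on the log2 scale, and 11 of 37 members were higher in αGlu 2 and 3. The 4 IFIT genes were all lower there, by -0.70 to -1.95. Rsad2, the viperin gene, and its neighbour Cmpk2, named after their values were seen, had differences of -1.34 and -1.23. Rsad2 had 38.6, 317 and 283 CPM in Ctr and 520, 292 and 144 in αGlu. On the other side lay Isg20, Ifitm3 (0.90), Oasl1 (0.82), Usp18 (0.55) and Zbp1 (0.42).

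**Figure D3:**
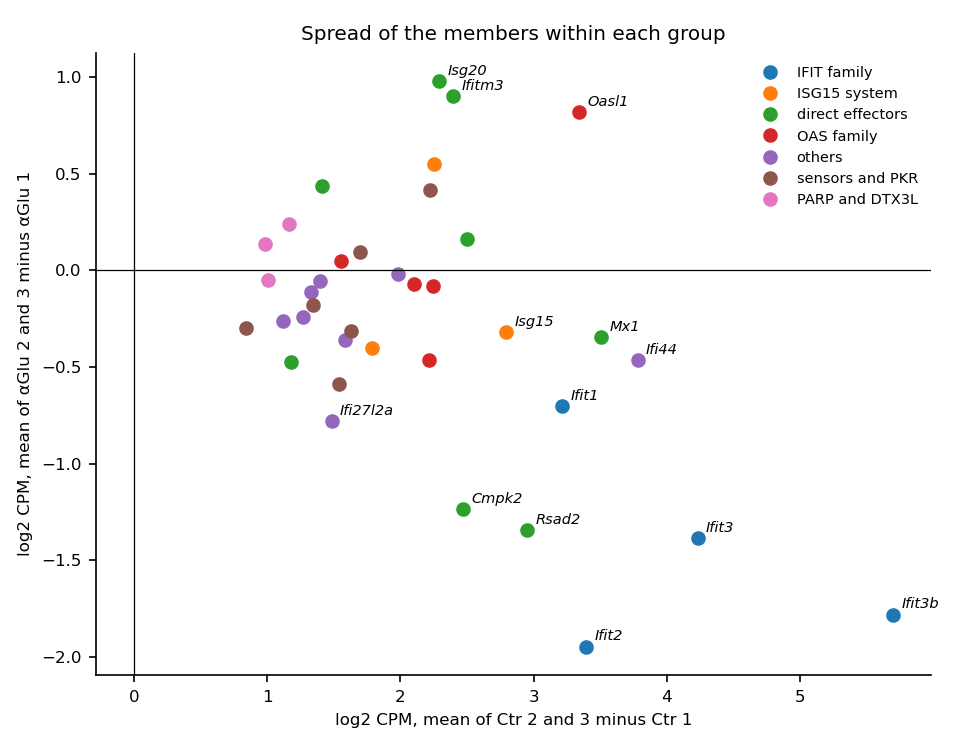
For each of the 37 members, the log2 CPM difference inside the control group (mean of Ctr 2 and 3 minus Ctr 1, x axis) against that inside the αGlu group (mean of αGlu 2 and 3 minus αGlu 1, y axis), coloured by role. All points lie right of 0, and Ifit2, Ifit3b, Ifit3, Rsad2 and Cmpk2 lie lowest while Isg20, Ifitm3 and Oasl1 lie highest.

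Without αGlu 1 edgeR called 2 members, Isg20 (log2 fold change 1.99 ± 0.53, adjusted p = 0.027) and Ddx60 (1.13 ± 0.46, adjusted p = 0.096), where 8.05% of all genes were called higher and 10.5% lower. With both αGlu 1 and Ctr 1 left out, 2 libraries against 2 remained and 5 members were called by edgeR. These libraries were left out with earlier results of these data known, so the p-values of this fit are descriptive. Isg20 (1.54 ± 0.13, adjusted p = 0.00036) and Oasl1 (1.27 ± 0.13, adjusted p = 0.00069) rose, where 8.28% of all genes were called higher. Ifit2 (-1.29 ± 0.14, adjusted p = 0.00089), Ifit3b (-1.08 ± 0.15, adjusted p = 0.0026) and Ifi27l2a (-1.31 ± 0.08, adjusted p = 7.7e-05) fell, where 9.9% were called lower. A share of 5 in 37 is 13.5%, and it is below the 18.2% of all genes called in either direction. In that comparison 17 members were higher and 20 lower, with a median log2 fold change of -0.017, so the members had no common direction. Ifi27l2a, a gene for a small interferon-inducible protein, named after its values were seen, had 42.7, 121 and 118 CPM in Ctr and 83.4, 49.8 and 47.3 in αGlu. It was the only member with a negative fold change when all 6 libraries were used.

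The pathway that feeds these genes was read from a list of 60 genes, of which 39 passed the low-count filter and 18 had no read. Ifnb1 had 5 reads in all, 3 in αGlu 2 and 2 in αGlu 3. All 13 Ifna genes listed were at 0 reads in every library, and the limit that a count of 0 allows ran from 0.0987 CPM in αGlu 2 to 0.167 CPM in αGlu 1. With edgeR 0 of the 39 were called, and 18 (46.2%) had an unadjusted p under 0.05, against the 24.7% of all genes, with 15 higher and 3 lower. The pathway genes were lowest in Ctr 1 in 24 of 39 cases, and their median log2 difference between Ctr 2 and 3 and Ctr 1 was 0.24.

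For the receptor chains Ctr 1 lay close to Ctr 2 and 3. Ifnar1 had 95.3, 85.9 and 77.4 CPM in Ctr and 89.1, 203 and 189 in αGlu. Ifnar2 had 93.8, 101 and 110 CPM in Ctr and 120, 255 and 217 in αGlu. For both, αGlu 2 and 3 stood above the other 4 libraries and αGlu 1 stood with or just above Ctr. Their log2 fold changes were 0.90 ± 0.31 and 0.95 ± 0.28, with adjusted p-values of 0.174 and 0.159 by edgeR.

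Among the signalling factors, Irf7, Stat2 and Irf9 were lowest in Ctr 1, to unequal degrees, whereas Jak1, a receptor kinase gene, and Irf3 were not. Irf7, the factor that amplifies interferon production, had 43.9, 475 and 559 CPM in Ctr and 757, 1095 and 1005 in αGlu. It was higher in all αGlu than in all Ctr libraries, with an adjusted p of 0.314 by edgeR. Stat2 had 117, 362 and 361 CPM in Ctr and 385, 384 and 348 in αGlu. Irf9 had 53.9, 79.6 and 87.04 CPM in Ctr and 83.8, 88.5 and 87.7 in αGlu. Outside Ctr 1, Stat2 and Irf9 were nearly flat.

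**Figure D4:**
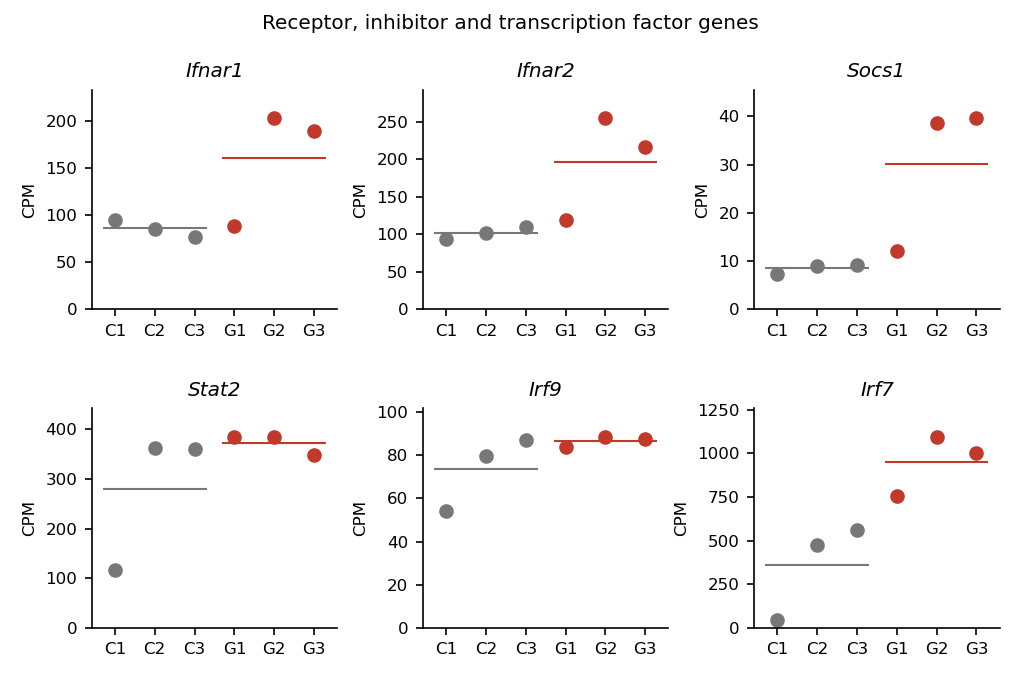
CPM (y axis, linear, from 0) of 6 receptor, inhibitor and transcription factor genes in each library, with C1 to C3 for Ctr 1 to 3 (grey) and G1 to G3 for αGlu 1 to 3 (red), and lines at the group means (n = 3). Ifnar1, Ifnar2 and the inhibitor gene Socs1 are high in G2 and G3, whereas Irf7, Stat2 and Irf9 are lowest in C1.

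The 3 pathway genes with the smallest p were the feedback inhibitors Socs1 and Socs3 and the kinase gene Ikbke, each with an adjusted p of 0.156 by edgeR. Socs3 had 0.772, 0.418 and 0.139 CPM in Ctr and 0.516, 221 and 216 in αGlu. Socs1 had 7.27, 8.94 and 9.23 CPM in Ctr and 12.2, 38.6 and 39.6 in αGlu. Ikbke had 134, 144 and 141 CPM in Ctr and 169, 182 and 209 in αGlu. Socs1 and Socs3 were high in αGlu 2 and 3, unlike most members.

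Compared with other immune gene groups, the low level in Ctr 1 was shared by the interferon-inducible GTPases of the GBP and IRG families, of which 17 of 18 were lowest there, with a median log2 difference of 1.79. The NF-κB inflammatory genes gave another picture. Of 19 tested NF-κB inflammatory genes 8 were lowest in Ctr 1, and their median difference was 0.099. Their mean log2 CPM was 3.42, 3.65 and 3.62 in Ctr and 3.66, 6.83 and 6.85 in αGlu, and αGlu 2 and 3 stood apart.

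**Figure D5:**
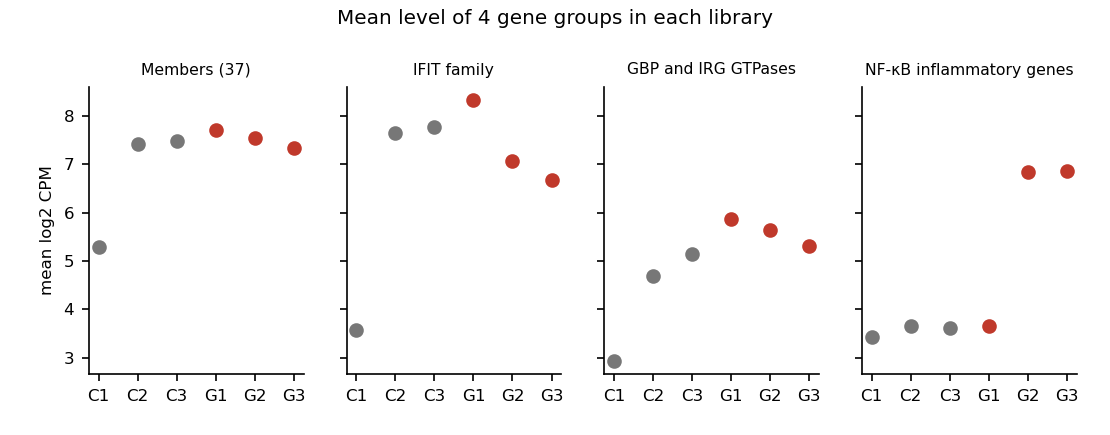
Mean log2 CPM (y axis) of 4 gene groups in each library (C1 to C3, Ctr 1 to 3, grey; G1 to G3, αGlu 1 to 3, red). The members, the IFIT family and the GBP and IRG GTPases are lowest in C1, whereas the NF-κB inflammatory genes are at 3.42 to 3.66 in 4 libraries and at 6.83 and 6.85 in G2 and G3.

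Other measures also set Ctr 1 apart. Mitochondrial transcripts took 3.30% of its reads, against 1.97% to 2.71% elsewhere. Fibroblast markers summed to 7.95 CPM in Ctr 1 and to 2.01 to 3.15 CPM in the other libraries. Most of the sum in Ctr 1 came from Col1a1 (2.04 CPM) and Col1a2 (3.59 CPM), which are low levels. Col1a1, Col1a2 and Pdgfra were highest in Ctr 1, whereas Col3a1, Dcn and Pdgfrb were not. Of the 10 macrophage markers, Fcgr1, a high-affinity antibody receptor gene, was low in Ctr 1 at 70.3 CPM, against 215 to 318 in the other 5. C1qa was also lowest there, at 213 CPM against 253 to 697, and the rest of these markers were not. Csf1r had 2771 CPM in Ctr 1 against 2400 and 2608 in Ctr 2 and 3, and Lyz2 had 7229 against 5694 and 6881. The part of these measures in the level of the members was not tested.

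The genes most like the members in course were sought among 8540 other genes by Pearson r with the mean log2 CPM of the members over the 6 libraries. The 10 highest were Ifi211, Phf11d, Stat2, Ifi213, Ifi209, Slfn1, Ifi35, Treml2, Phf11b and Pml, with r from 0.994 to 0.998. Ifi211 had 110, 419 and 486 CPM in Ctr and 528, 454 and 407 in αGlu. Slfn1 had 2.82, 85.8 and 98.3 CPM in Ctr and 96.9, 102 and 70.8 in αGlu. Without Ctr 1 the r of these 10 genes ran from 0.67 to 0.92.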

How the data were processed

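The authors deposited 1 table of stranded mRNA sequencing of 6 libraries, made with the QIAGEN RNA-seq Analysis Portal, and GRCm38 is the build named in the submitters' processing notes. The aligner, the annotation and the treatment of multi-mapped reads are not given in the sources used here. The deposited counts are whole reads per gene and were used for all tests. The deposited TPM values served to compare levels between genes. The deposited RPKM values and the authors' CPM column, a signal on their own effective library sizes, were not used. Low counts were filtered with edgeR 4.0.16 (filterByExpr, at least 10 per library and 15 in total). A quasi-likelihood model with the group as its term was fitted to all genes with TMM factors in R 4.3.3, two-sided, with Benjamini-Hochberg adjustment. CPM values were scaled to TMM-adjusted library sizes, and a prior count of 2 was added before taking log2. Each SE was obtained from a fold change and the F value of its test. Where a symbol was split by a suffix, which concerned 86 symbols, the row with most reads was used. Alternatives were DESeq2 1.42.0, limma-voom (limma 3.58.1), other scalings and filters, the replicate number as a block, and libraries left out. The members, the lists, the libraries left out and the tests were chosen with earlier results of these data known. The text gives values per library for the most abundant member of each role, the 5 members with the smallest p, the 5 with the deepest drop in Ctr 1 and those without overlap, and says where a gene was added after its values were seen. Reads per gene were 15 or more for every member in every library. Tests at this depth rest on the spread between 3 libraries per group. The limits given for genes without reads cover counting error only. The SE and SD values include the spread between libraries.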

Additional observations from a re-analysis of the deposited data

How the results depend on the processing

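Other scalings (RLE, upper-quartile, library size alone), other low-count filters and limma-voom left 0 members called and the sign of all 37 fold changes as given, while scaling by library size alone gave a median of 0.10 for all tested genes, in place of 0.016, and of 0.58 for the members. All 37 members were lowest in Ctr 1 under each scaling and filter tried. DESeq2 called 2 members, 3 pathway genes and 1117 genes in all. The replicate number as a block (replicate block) called 0 members (8, or 21.6%, at an unadjusted p under 0.05, against 23.9% of all tested genes) and 17 genes in all, with a median of 0.63 for the members. Correlations of same-numbered deviations were 0.076, 0.065 and 0.15, against -0.11 to 0.046 for other pairs, and each library correlated best with its own number, a hint from the data and not the design. The labels give only the numbers and the study's methods name no pairing for these libraries, although a paired test was used for another measurement of ASO-treated BMDMs, so whether same-numbered libraries share a preparation is not known here. With Ctr 1 and αGlu 1 both left out, edgeR called 5 members, 8 pathway genes and 2226 genes in all. Leaving out each library in turn gave 0 to 2 members, 0 to 8 pathway genes and 0 to 2290 genes called, and the highest counts came without αGlu 1. It gave 0 to 3 members lower without overlap, and the 3, without Ctr 1, were Oas2, Rtp4 and Ifi27l2a. The share over all genes without Ctr 1 is not given here, so this count is not read as a result about the members. The margins were narrow for Oas2 (135 CPM in αGlu 1, 138 in Ctr 2) and Rtp4 (249 CPM in αGlu 1, 251 in Ctr 2). The log2 fold change turned negative for 14 members without Ctr 1 and for 6 without αGlu 1. Over the libraries left out in turn it ran from -0.78 to 0.57 for Ifit2, -0.39 to 0.65 for Ifit3, -0.51 to 0.85 for Ifit3b, -0.18 to 0.62 for Oas2, -0.14 to 0.58 for Oas3, -0.24 to 0.78 for Ifi44, -0.14 to 0.73 for Cmpk2, -0.31 to 0.32 for Rtp4, -0.12 to 0.47 for Dhx58, -0.12 to 0.51 for Ifi204, -0.098 to 0.43 for Lgals3bp, -0.039 to 0.50 for Epsti1, -0.031 to 0.49 for Sp100 and -0.21 to 0.27 for Samd9l. With both libraries left out, 19 members turned negative, namely Ifit2 (-1.29), Ifit3b (-1.08), Ifit3 (-0.94), Cmpk2 (-0.59), Rsad2 (-0.46), Rtp4 (-0.45), Ifi44 (-0.42), Samd9l (-0.40), Ifi204 (-0.35), Oas3 (-0.32), Dhx58 (-0.25), Oas2 (-0.21), Lgals3bp (-0.15), Epsti1 (-0.14), Sp100 (-0.13), Isg15 (-0.040), Oasl2 (-0.029), Herc6 (-0.017) and Eif2ak2 (-0.0016). The cause of these shifts was not tested. Each member had at least 15 reads in every library, and each group held 3 libraries, so a single library could carry a fold change, as Ctr 1 did.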
